A study of Mus musculus with 4 samples.

Results

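The genes for the proteins of the cytosolic ribosome were described in mouse embryonic stem cells with and without the Tet enzymes. Members were all genes of the expression files whose symbol is Rpl or Rps followed by a number, with or without a final a, x or l, together with Rplp0, Rplp1, Rplp2 and Rpsa. The rule took 81 of 22483 gene symbols, 49 of the large subunit and 32 of the small subunit. It used names alone and no measured value. The cells were of the male mouse embryonic stem cell line E14Tg2a. One set was unmodified (WT). The other (TetTKO) carried knockouts of Tet1, Tet2 and Tet3 made by transfecting px330 CRISPR plasmids with guides to all 3 genes, and the labels report no detectable 5-hydroxymethylcytosine in it. The knockout was made in 2i medium, a serum-free medium with inhibitors of MEK and GSK3. Both lines were then kept in serum (15%) with LIF (1000 units/ml), for 17 days or longer. The labels speak of picked clones without saying how many went into the libraries, so clonal differences cannot be told apart from the genotype.

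A ribosome joins a large subunit, which forms peptide bonds, to a small subunit, which reads the messenger RNA. Each carries one copy of nearly every ribosomal protein, and cells make these proteins in matched amounts. In mammals their genes are among the most transcribed of all, are scattered over the chromosomes, and as a rule start at an unmethylated CpG island with a pyrimidine tract (the 5′ terminal oligopyrimidine or TOP tract) through which growth signals set translation of the mRNA. Tet enzymes oxidise 5-methylcytosine, a step towards its removal.

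There were 4 libraries, 1 whole-genome bisulfite (WGBS) and 1 RNA-seq library per genotype. No value below has a replicate check, no test across genes was made, and differences are given by size alone. The WGBS libraries held 132794183 CpG read calls in WT and 150132176 in TetTKO over 14323377 CpGs, with median coverages of 8 and 10 reads. Over the members' intervals, the median was 9.62 and 11.2 reads per CpG. Bisulfite sequencing reads 5-methylcytosine and 5-hydroxymethylcytosine alike. RNA was given as FPKM, read fragments divided by transcript length and library size, and the read depth is unknown. In these bulk samples, fewer cells of a type and less RNA per cell cannot be told apart. The targeted genes were lower, with Tet1 at 15.1 FPKM in WT against 4.36 in TetTKO and Tet2 at 14.9 against 4.13, while Tet3 was at 0.32 against 0.27. All 8 markers of embryonic stem cells that were examined were above 1 FPKM in both libraries. They summed to 6123 FPKM in WT and 6032 in TetTKO. Lower in TetTKO were Esrrb (49.3 and 26.4 FPKM), Nanog on chromosome 6 (116 and 71.0) and Zfp42 (698 and 513). Pou5f1 (1178 and 1092) and Sox2 (192 and 187) were slightly lower. Dppa5a (3211 and 3344), Tdgf1 (573 and 679) and Lin28a (106 and 120) were higher. The 6 fibroblast markers examined summed to 1.56 FPKM in WT and 2.33 in TetTKO.

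The start of transcription is shown first for members whose start lies in or directly beside a long pyrimidine run and for the 2 tissue-restricted copies Rpl10l and Rpl39l, to which the results return. The sequences are from RefSeq (GRCm38.p6), 15 bases before to 15 bases after the annotated start. Capitals mark the longest pyrimidine run reaching into the stretch from 5 bases before to 10 after the start.
Rpl18: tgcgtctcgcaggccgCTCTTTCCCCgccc
Rplp2: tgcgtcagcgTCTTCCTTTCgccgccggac
Rpl28: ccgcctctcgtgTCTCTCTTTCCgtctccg
Rpl38: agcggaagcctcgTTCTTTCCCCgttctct
Rps18: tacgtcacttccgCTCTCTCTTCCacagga
Rps6: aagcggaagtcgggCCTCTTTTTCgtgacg
Rpl10l: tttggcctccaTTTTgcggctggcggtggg
Rpl39l: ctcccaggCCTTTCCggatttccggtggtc
The windows are chr7:45718056-45718085 (plus strand), chr7:141447636-141447665 (plus strand), chr7:4792950-4792979 (plus strand), chr11:114668565-114668594 (plus strand), chr17:33955651-33955680 (minus strand), chr4:86857353-86857382 (minus strand), chr12:66284387-66284416 (minus strand) and chr16:10170213-10170242 (plus strand), in that order. Rpl18, Rplp2, Rpl38 and Rps6 have runs of 10 pyrimidines, and Rpl28 and Rps18 have 11. Rpl10l has TTTT near its start and Rpl39l a run of 7. Short runs are not particular to these copies: the median run over 56 member promoters was 6, and Rplp0 and Rps19 also had 4.

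RefSeq had a promoter, 250 bases before to 50 after the start, for 60 members. For 56 of them the CpGs of that sequence fell on the listed mm9 CpGs with the same spacing, which placed the start on the deposited interval. The annotated start was exactly at an interval end in 45 and within 5 bp in 48. Of these 56 promoters, 22 (39.3%) had a run of at least 8 pyrimidines reaching into the stretch from 5 bases before to 10 after the start, against 11.3% of 32851 RefSeq mouse promoters. The ETS-family motif CCGGAAG, searched on both strands, was in 24 (42.9%) against 8.86% of all promoters. The SP1 motif GGGCGG, also on both strands, was in 33 (58.9%) against 35.7%, and the YY1 motif AAGATGGC in 4 (7.14%) against 2.75%. None of the 56 had TATAAA on either strand in the 60 bases before the start, against 3.92% of all promoters. The median member promoter held 21.5 CpGs, against 7 overall. These are matches of letters and not measured binding sites.

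RNA of the ribosomal protein genes took a large and nearly equal part of both transcriptomes. The members summed to 164192 FPKM in WT and 163121 in TetTKO, a ratio of 0.993 that became 1.03 when both libraries were scaled to the same total. The sum was 28.1% of all FPKM in WT and 28.8% in TetTKO. Large-subunit genes made up 16.1% and 16.5%, and small-subunit genes 11.9% and 12.3%. In WT, 75 members had at least 100 FPKM and 62 at least 1000 FPKM, out of only 98 genes of any kind at that level.

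**Figure D1:**
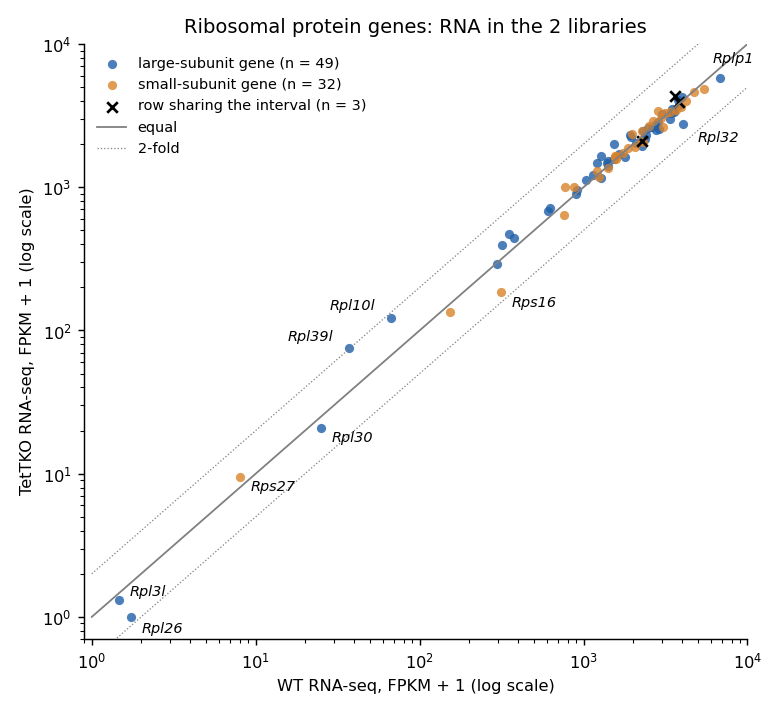
FPKM plus 1 of each member in the WT (x axis) and TetTKO (y axis) RNA-seq library, both axes on a log scale, with large-subunit genes in blue and small-subunit genes in orange. Crosses are 3 other rows of the files that share an interval with Rpl26, Rpl30 or Rps27, and dotted lines mark a 2-fold difference. Members of at least 100 FPKM lie along the line of equality, with a Pearson correlation of 0.984 over 75 genes, and Rpl39l and Rpl10l lie above it.

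On the scale log2((TetTKO + 1)/(WT + 1)), which understates differences of genes with low FPKM, 79 members with at least 1 FPKM in either library had a median of 0.01, with quartiles at -0.09 and 0.11. The 47 large-subunit genes had 0.04 and the 32 small-subunit genes -0.0014. Over all 10975 genes of at least 1 FPKM the median was -0.0077, with quartiles at -0.21 and 0.20. Members thus spread less around 0 than genes in general. A difference was called within 25% where neither library exceeded the other by 25% or more on the FPKM + 1 scale. Within 25% stood 71 of 79 members (89.9%) and 7517 of 10975 genes (68.5%). Abundant genes in general spread less too: 608 of 785 other genes of at least 100 FPKM in WT (77.5%) stood within 25%, against 69 of 75 members at that level (92.0%). The other abundant genes had a median of -0.09. Whether the smaller spread goes beyond abundance was not tested.

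By at least 25%, 6 members were higher in TetTKO, where 15.8% of all genes were, and 2 were lower (WT at least 25% above TetTKO), where 15.7% were. By the 2-fold rule 1 member, Rpl39l, was higher, where 1.77% of all genes were, and none was lower, where 0.847% were. Among genes of at least 100 FPKM, 3.84% were higher and 17.4% lower by the 25% rule, and 0% and 0.698% by the 2-fold rule. The members' shares, 7.59% higher and 2.53% lower, lie below those of all genes. Beside genes of at least 100 FPKM, the share higher lies above and the share lower below. Of the 6 higher members, Rpl10l and Rpl39l were under 100 FPKM in WT.

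The most abundant member in both libraries was Rplp1, which encodes an acidic protein of the ribosomal stalk, the flexible arm that recruits elongation factors. Rplp1 (mm9 chromosome 9, 61761090 to 61762317) stood at 6823 FPKM in WT and 5801 in TetTKO, a log2 ratio of -0.23. Its partner Rplp2 had 2263 and 1925 FPKM, also -0.23. Rplp0, the protein on which the stalk is built, had 2631 and 2650 FPKM, a log2 ratio of 0.01. The 2 acidic stalk genes were therefore lower by about the same amount, and the base of the stalk was level. Rpsa, the small-subunit protein also known as the laminin receptor, had 1585 and 1641 FPKM.

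Next in abundance came 3 small-subunit genes. Rps12 had 5412 FPKM in WT and 4849 in TetTKO. Rps18 had 4692 and 4626, and Rps14, whose loss from one human chromosome impairs red cell formation, had 4220 and 4021. All 3 were slightly lower in TetTKO and within 25%. The fifth was Rpl32, the only member on chromosome 6. Rpl32 (115755532 to 115758761) stood at 4059 FPKM in WT and 2772 in TetTKO, a log2 ratio of -0.55. Chromosome 6 differed as a whole between these lines: the median over 309 of its genes, those with 5 FPKM or more in each library, was -0.52, with 91.3% lower, and its WGBS coverage per CpG relative to the median autosome was 1.34 in WT and 0.982 in TetTKO. The value of Rpl32 was close to that median. The part of the chromosome in it was not tested. Without Rpl32 the median over members remained 0.01.

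**Figure D2:**
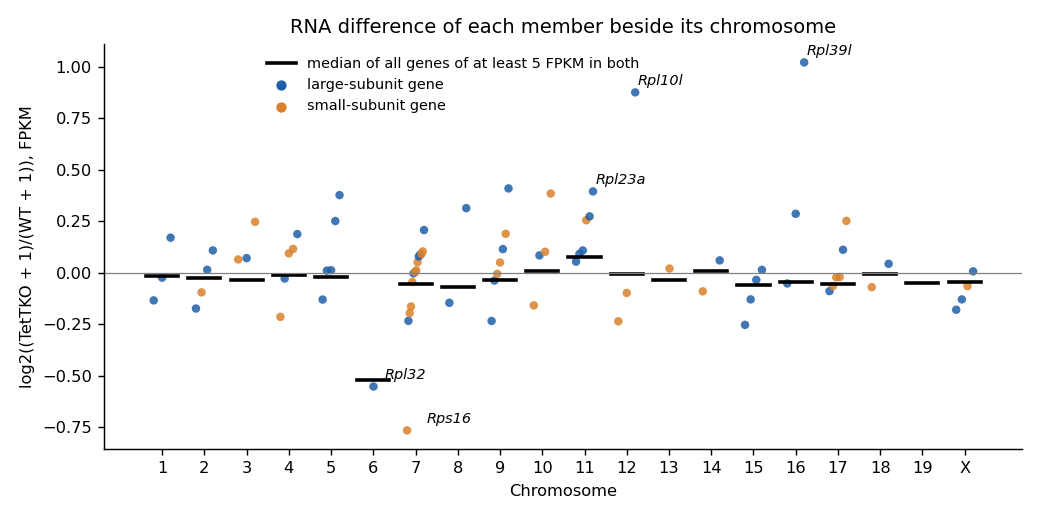
The log2 ratio of FPKM plus 1, TetTKO over WT, of each of 79 members (points, blue for the large and orange for the small subunit), by chromosome, with the median of all genes of at least 5 FPKM in both libraries on that chromosome as a black bar. Rpl32 lies beside the low median of chromosome 6, while Rps16 on chromosome 7 and Rpl10l and Rpl39l on chromosomes 12 and 16 lie away from theirs.

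Outside chromosome 6 the lowest ratio was that of Rps16 on chromosome 7, which encodes a small-subunit protein whose tail contacts the bound tRNA. Rps16 (29135708 to 29137717) stood at 313 FPKM in WT and 184 in TetTKO, a log2 ratio of -0.76. Its chromosome had a median of -0.06, and the 14 members on that chromosome had a median of 0.0069. Rps16 was therefore below the median of its chromosome and was the lowest of those 14 members. The next lowest were Rpl30 at -0.25 and Rps29, a zinc-binding protein of the small subunit, with 758 and 644 FPKM at -0.24. They were followed by Rplp1 and Rplp2.

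Upward, after the 2 tissue-restricted copies described below, came Rpl29, a large-subunit protein that is dispensable for viability in mice, with 352 FPKM in WT and 467 in TetTKO, a log2 ratio of 0.41. Rpl23a, at the exit of the peptide tunnel, had 1523 and 2003 FPKM (0.39). Rps26, at the mRNA exit channel, had 768 and 1003 FPKM (0.38). Rpl6 was the last past the 25% rule, with 1269 and 1649 FPKM (0.38), and was named after its values were seen. On chromosome 11, which carries Rpl23a, all 6 members counted were higher, with a median of 0.18. The remaining member there, Rpl26, was listed under 1 FPKM in each library (0.73 in WT and 0 in TetTKO) and was not counted. Of 585 genes of that chromosome that reached 5 FPKM in each library, 39.3% were lower, and their median was 0.08. The chromosome's relative WGBS coverage was 1.03 in both libraries.

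The X-linked members are present in 1 copy in male cells. Rps4x had 3640 FPKM in WT and 3479 in TetTKO. Rpl39 had 2897 and 2558. Rpl36a had 1786 and 1633, and Rpl10 had 1401 and 1408. All 4 stood within 25%, with a median log2 ratio of -0.10.

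A few members with very low values shared their interval with another row of the files. Rpl26, which binds at the tunnel exit, was listed at 0.73 FPKM in WT and 0 in TetTKO. The row Gm15772, which covers 99.2% of the Rpl26 interval, had 3636 FPKM in WT and 4329 in TetTKO. Rps27 had 7.03 and 8.53 FPKM, while Gm9846, over 99.9% of its interval, had 3816 and 3962. Rpl30 had 24.0 and 20.0 FPKM, while Gm12191, over 98.4% of its interval, had 2259 and 2112. In each pair the named gene had the low value and the overlapping row a value typical of the family. Summed over the pair, the log2 ratios were 0.25 for Rpl26, 0.05 for Rps27 and -0.10 for Rpl30. With these 3 rows added, the members held 29.7% of all FPKM in WT and 30.6% in TetTKO. Ribosomal protein genes also have many near-identical processed pseudogenes, so how reads were split between copies is uncertain for every member.

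The tissue-restricted copies of ribosomal protein genes held the largest RNA differences of the family. Rpl39l (mm9 chromosome 16, 10170321 to 10175004), the autosomal copy of X-linked Rpl39 known from male germ cells, had 36.1 FPKM in WT and 74.3 in TetTKO, a log2 ratio of 1.02. Rpl10l (chromosome 12, 67384366 to 67385388), an intronless copy of Rpl10 that replaces it in meiotic male germ cells, had 65.9 and 122 FPKM, a log2 ratio of 0.88. Their X-linked parents, given above, were level or slightly lower. Rpl39l had 1.246% of the WT FPKM of Rpl39, and Rpl10l had 4.70% of that of Rpl10. Rps27l, a p53-inducible copy of Rps27, had 873 and 995 FPKM. Rpl3l, a copy found in heart and skeletal muscle, was near the floor at 0.47 and 0.32 FPKM, while its parent Rpl3 had 2355 and 2153. The remaining copy listed, Rps4l, was found only under its synonym Rps4y2, outside the name rule and on chromosome 6, with 429 and 275 FPKM.

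Methylation was taken over both ends of each interval, from 1000 bp outside to 500 bp inside, and over the interval itself. The files give no strand, so ends were told apart by CpG number: the dense end has more listed CpGs and the sparse end fewer. Among the 56 members with a placed start, the dense end was the start in 55, with Rpl41 the exception. The dense end was nearly unmethylated in both libraries. Its median over 81 members was 0.976% in WT and 1.252% in TetTKO, and the median difference was 0.399 percentage points, with 60 members higher (74.1%) and 20 lower. Higher were also 64.0% of all gene intervals and 73.9% of other genes of at least 100 FPKM, so the members' share is that of abundant genes. Under 10% in both libraries were 76 of 81 members (93.8%), 46.6% of all gene intervals and 90.8% of the other abundant genes. No member was at least 10 points higher, where 8.01% of all gene intervals were, and 1, Rpl10l, was at least 10 points lower, where 9.65% were. Among genes of at least 100 FPKM these shares were 1.86% and 0.117%. Other genes of at least 100 FPKM had medians of 1.14% and 2.17%.

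**Figure D3:**
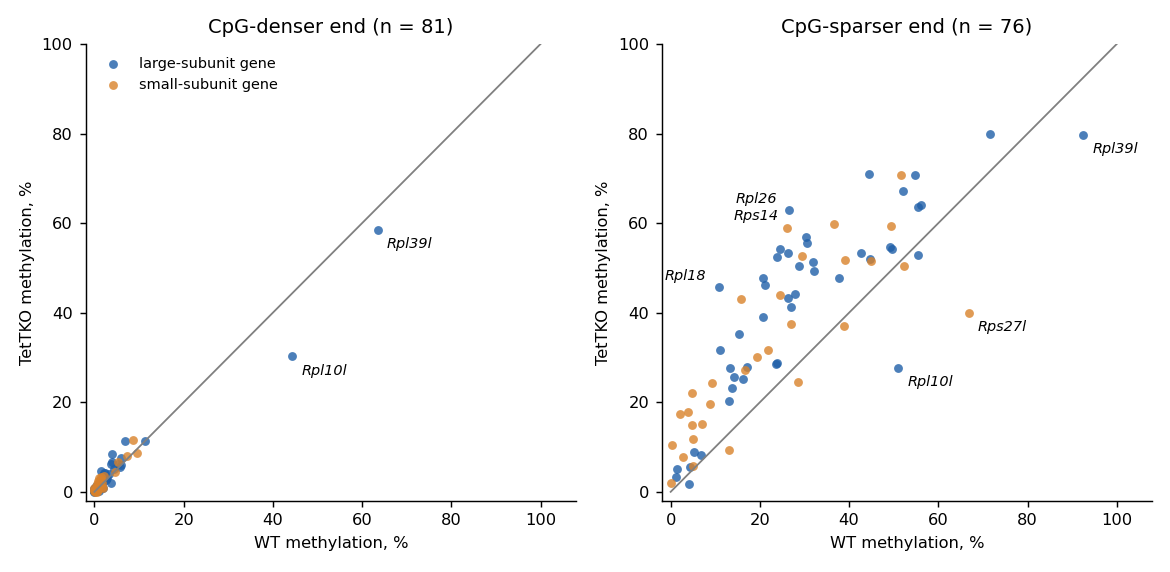
Mean CpG methylation in percent in the WT (x axis) and TetTKO (y axis) WGBS library at the CpG-denser end (left, 81 members) and the CpG-sparser end (right, 76 members), with the line of equality and the subunits in blue and orange. At the denser end all but Rpl39l and Rpl10l crowd near 0, and at the sparser end 67 of 76 lie above the line.

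At single-CpG level the placed promoters were close to fully unmethylated. Pooled over 54 promoters, Rpl10l and Rpl39l left aside, 971 CpGs had 25 of 9225 reads methylated in WT, or 0.271% (exact 95% Clopper-Pearson interval 0.175 to 0.400). In TetTKO 25 of 10636 were methylated, or 0.235% (0.152 to 0.347). No methylated read was seen in either library at 932 of the 971 CpGs. The 22 CpGs inside CCGGAAG motifs of 20 of these genes had 0 of 209 methylated reads in WT and 0 of 227 in TetTKO, which allow shares of up to 1.44% and 1.32%. The 26 CpGs in GGGCGG motifs had 0 of 220 and 3 of 264. Intervals and limits cover counting error only, and a read that spans several CpGs enters once for each.

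Among the 56 placed promoters, those of Rpl10l and Rpl39l were methylated well above the others. The stretches below run from 150 bases before to 15 after the start (RefSeq, GRCm38.p6), with the CpGs listed in the methylation files in capitals, and Rplp2 stands for the unmethylated promoters.
Rpl10l: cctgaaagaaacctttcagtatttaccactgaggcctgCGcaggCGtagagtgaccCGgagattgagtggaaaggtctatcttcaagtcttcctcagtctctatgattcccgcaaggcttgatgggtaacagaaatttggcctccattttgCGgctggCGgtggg
Rpl39l: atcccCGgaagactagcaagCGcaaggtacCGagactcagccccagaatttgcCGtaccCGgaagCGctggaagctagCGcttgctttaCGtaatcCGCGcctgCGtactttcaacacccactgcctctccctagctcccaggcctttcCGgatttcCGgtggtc
Rplp2: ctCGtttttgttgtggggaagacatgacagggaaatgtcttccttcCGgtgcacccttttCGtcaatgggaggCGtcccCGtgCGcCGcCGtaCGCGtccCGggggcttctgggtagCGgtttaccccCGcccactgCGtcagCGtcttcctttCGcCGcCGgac
They lie at chr12:66284387-66284551 (minus strand), chr16:10170078-10170242 (plus strand) and chr7:141447501-141447665 (plus strand). The stretch of Rpl10l has 5 listed CpGs and that of Rplp2 has 18. Rpl39l, with 13 listed CpGs, has 2 copies of the ETS motif (ccCGgaag in the print above), each with a CpG.

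Over the whole promoter, Rpl39l had 76 of 137 reads methylated in WT, 55.5% (46.7 to 64.0), and 95 of 164 in TetTKO, 57.9% (50.0 to 65.6). These intervals overlap, while the RNA was 2-fold higher in TetTKO. The CpGs of its ETS motifs, 145 and 91 bases before the start, had 5 of 7 and 6 of 10 methylated reads in WT and 9 of 12 and 8 of 15 in TetTKO. Over the wider dense end, Rpl39l had 63.5% and 58.4%, and at its sparse end 92.5% and 79.6%. Rpl10l had 33 of 105 promoter reads methylated in WT, 31.4% (22.7 to 41.2), and 16 of 91 in TetTKO, 17.6% (10.4 to 27.0). Those intervals overlap. Its dense end had 44.4% in WT and 30.2% in TetTKO over 25 CpGs, with exact intervals of the pooled reads of 38.7 to 51.9 and 28.1 to 41.6. Its sparse end had 51.0% and 27.7% (41.7 to 61.0 and 20.6 to 36.1). Rpl10l was thus the member with the largest decrease of its whole interval, from 33.3% to 17.8%. By the higher value of the libraries, the remaining members among the 5 most methylated at the dense end were Rps3 (8.73% and 11.7%), Rpl8 (11.4% in both) and Rpl3l (6.75% and 11.4%).

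**Figure D4:**
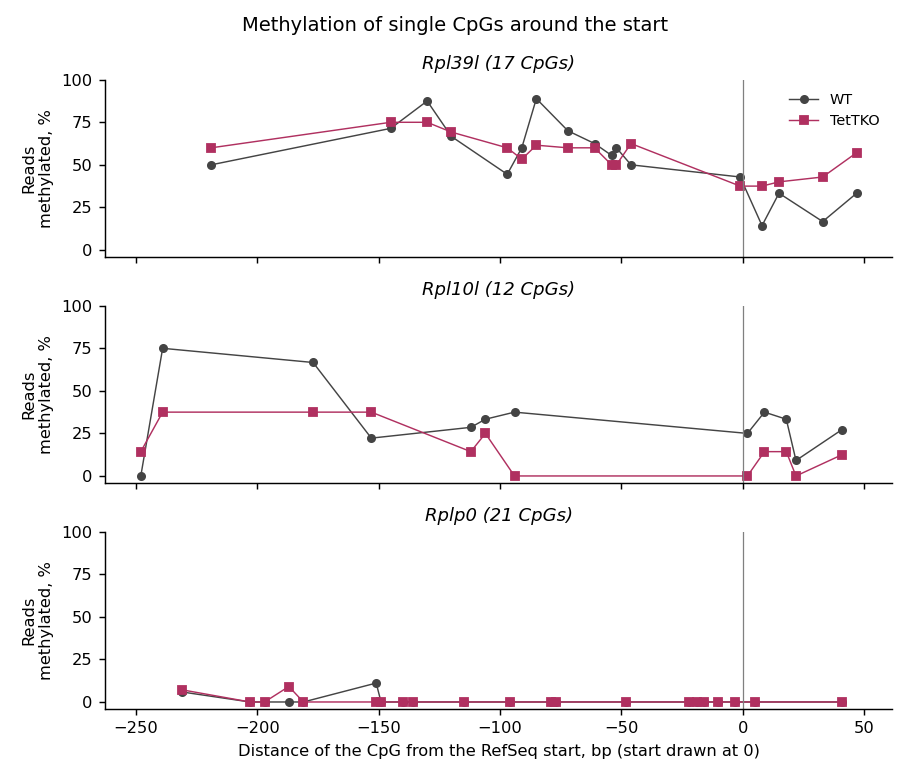
Percent of reads methylated at each listed CpG (points, WT in grey and TetTKO in red) against its distance from the RefSeq start in bp, for Rpl39l, Rpl10l and, as an unmethylated example, Rplp0. Single CpGs rest on 5 to 17 reads, CpGs of Rpl39l range from 14.3% to 88.9% in WT, and Rpl10l was lower in TetTKO at 10 of 12 CpGs.

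The sparse ends, by contrast, were partly methylated in WT and higher in TetTKO in most members. Over 76 members with at least 5 CpGs there, the median was 24.2% in WT and 40.6% in TetTKO, and the median difference 10.6 points. The other 5 members, Rpl10, Rpl17, Rpl39, Rps13 and Rps4x, had fewer than 5 CpGs. Higher in TetTKO were 67 (88.2%) and lower 9, where 35.2% of all gene intervals and 49.4% of other genes of at least 100 FPKM were higher. At least 10 points higher were 42 (55.3%), where 11% of all gene intervals and 19.8% of genes of at least 100 FPKM were. At least 10 points lower were 3, where 24.4% of all and 12.3% of genes of at least 100 FPKM were. Over all gene intervals the median difference was -3.70 points, and over other genes of at least 100 FPKM it was -0.046. Members have short intervals, none over 12000 bp. Of the other abundant genes within that length, 240 of 408 were higher, with a median difference of 1.83 points. Their sparse ends had a median of 59.8% in WT, and lengths below the limit were not matched.

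The members' sparse ends also started lower, since the median sparse end of all genes had 76.4% in WT. Split by WT level, a division added after the values were seen, the 32 members of 10 to 30% differed by a median of 16.7 points, and 46 other genes of at least 100 FPKM in that class differed by 13.8. The 15 members of 30 to 50% differed by 10.8 points, and 80 such other genes by 12.7. The 18 members under 10% differed by 5.78 points, and 84 others by 2.58. At 50% or more, 11 members differed by 8.09 points and 523 others by -3.34. Most members thus lie in classes where other abundant genes were higher in TetTKO too. Classes were set from the same WT values as the differences, which raises differences of low classes. The size of this effect was not measured, and it may differ between members and other genes. Whether members differ from other genes of equal level was not tested.

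Among the members with the largest differences, Rpl26 had 26.6% at its sparse end in WT (19.9 to 37.0, exact 95% interval of the pooled reads) and 62.9% in TetTKO (55.1 to 70.8). Rpl18 had 10.8% (7.40 to 19.1) and 45.7% (39.1 to 56.1). Rps14 had 26.2% (20.7 to 31.6) and 59.0% (54.5 to 65.1) over 28 CpGs. Rpl31 followed with 24.6% and 54.1%, and Rpl3 with 23.9% and 52.5%. In Rpl26, Rpl18 and Rps14 the intervals of the libraries do not overlap, yet their dense ends stayed under 5% in both. Their RNA, or that of the row over Rpl26, was within 25%. Downward, Rps27l went from 66.8% to 39.9%, over only 5 CpGs. Over the 74 members with both values, the sparse-end difference and the log2 ratio of RNA had a Pearson correlation of -0.201. It is given as a description, since members of 1 library pair are not independent.

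A profile by distance from the dense end followed this difference across the gene and past its other end. Over the 79 members other than Rpl10l and Rpl39l, the first 500 bp inside the dense end had 0.671% in WT and 0.929% in TetTKO. Between 1500 and 2000 bp the means were 8.60% and 15.5%. They were 23.8% and 36.0% between 2500 and 3000 bp, where 63 of 73 members were higher, and 35.6% and 48.8% between 3500 and 4000 bp, where 62 of 73 were. The largest difference was 13.2 points in that last bin. It was 0.19 points between 7500 and 8000 bp and -6.47 between 9000 and 9500 bp. On the outer side the differences were smaller. In the 500 bp next to the dense end it was 0.70 points (44 members higher and 17 lower). From 1000 to 500 bp outside it was 3.29 points (54 higher and 18 lower), and from 1500 to 1000 bp outside 0.19 points. Further out, to 4000 bp, the mean was lower in TetTKO in every bin. The lowest difference was -3.60 points, from 3000 to 2500 bp outside (27 higher and 46 lower). Other genes of at least 100 FPKM and at most 12000 bp, the length that covers every member, showed their largest difference, 5.93 points, between 1000 and 1500 bp. Between 2500 and 3000 bp these had 50.0% and 52.7%. Members stayed low further into the gene than the other genes did.

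**Figure D5:**
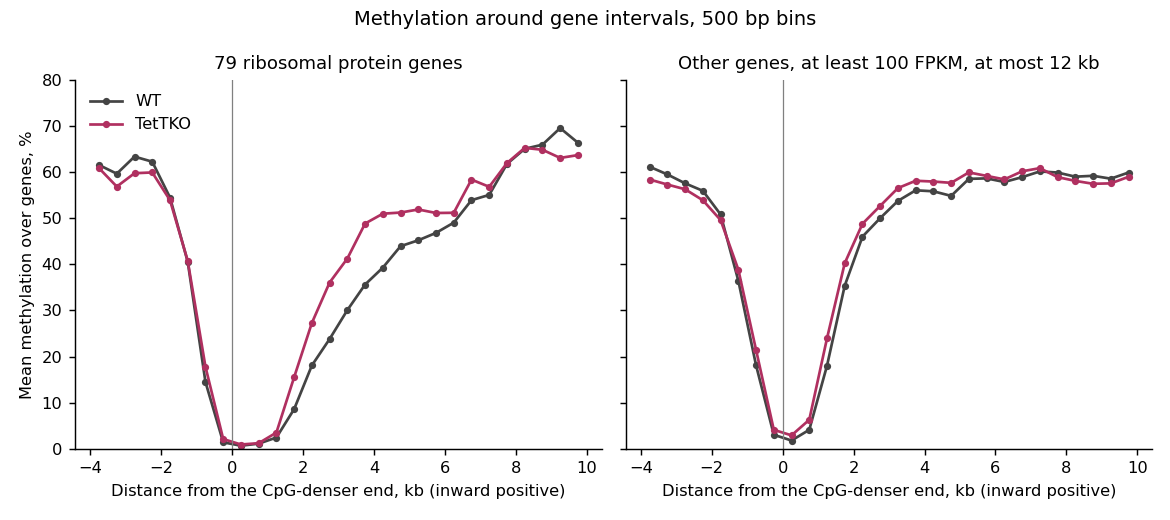
Mean methylation in percent over genes, in 500 bp bins by distance in kb from the CpG-denser end (inward positive), in WT (grey) and TetTKO (red), for 79 members (left) and for other genes of at least 100 FPKM and at most 12000 bp (right). Between 1500 and 6000 bp inward, a stretch that runs past the end of many members, the TetTKO line lies above the WT line by up to 13.2 points, and by up to 4.87 points in the other genes.

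Whole intervals, which mix both ends, had a median of 3.69% in WT and 5.89% in TetTKO, with 67 of 81 members higher (82.7%), where 30.8% of all gene intervals and 58.3% of other genes of at least 100 FPKM were. Among those other genes of at most 12000 bp, 307 of 430 were higher, with medians of 22.2% in WT and 25.2% in TetTKO. At least 10 points higher were Rps25 (7.02% and 18.3%) and Rpl22 (14.8% and 25.8%), which is 2 of 81 where 2.85% of all gene intervals and 4.08% of those of genes of at least 100 FPKM were. Rpl22, an RNA-binding large-subunit protein, had 295 and 289 FPKM, and Rps25 had 1742 and 1736. Rpl3 (8.98% and 17.8%) was also among the largest differences. The single interval at least 10 points lower was that of Rpl10l, where 7.48% of all and 0.233% of abundant genes were. All gene intervals had medians of 65.3% and 62.0%.

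Genes that build or serve the ribosome were measured beside the family, by lists drawn up with earlier results of these data known. Their counts by the 25% rule stand beside 15.8% of all genes higher and 15.7% lower. The 76 mitochondrial ribosomal protein genes, which serve a separate ribosome, had a median log2 ratio of -0.04. By the 25% rule 3 were higher and 13 lower, and their median was -0.01 without 7 on chromosome 6. Mrps6 was the lowest (15.4 and 9.87 FPKM) and Mrps15 the highest (13.6 and 20.4). Their sparse ends had a median difference of -1.88 points, against 10.6 for the cytosolic genes. The 8 genes on the elongation factor list include Tpt1 and Eef1e1, which are not elongation factors themselves. The 8 had a median of 0.0079 and none past 25%, from Eef1b2 (583 and 523 FPKM) to Tpt1 (671 and 746). Their sparse ends differed by 9.28 points. The initiation factor list was drawn mostly by Eif symbols. It therefore also holds genes that are not initiation factors, such as the Eif2ak kinases, the Eif2c genes and the Eif4ebp genes. It shares Eif5a with the elongation list. Of its 52 genes of at least 1 FPKM in either library, 1 was higher and 4 were lower, with a median of 0.07. The Y-linked Eif2s3y (39.1 and 15.0 FPKM) was the lowest and Eif2s2 (203 and 293) the highest. The 2 Y-linked genes that reached 5 FPKM in each library, Eif2s3y among them, were lower, with a median of -1.58.

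The 35 ribosome assembly factor genes had a median of -0.00044, with none higher and 3 lower, from Bms1 on chromosome 6 (84.7 and 57.4 FPKM) to Utp20 (22.3 and 27.9). The 3 lower, Bms1, Emg1 and Nop2, were the list's only genes on chromosome 6, and the median was 0.02 without them. The 14 genes of RNA polymerase I and its factors, which transcribe ribosomal RNA, had -0.02, from Cd3eap (18.1 and 13.7) to Taf1d (116 and 153). The 17 snoRNA host genes had 0.04, from Epb4.1l4a (9.97 and 7.62) to Snhg3 (40.7 and 52.8). Their sparse ends differed by 10.9 points over 14 genes. Of 16 genes for regulators and sensors of ribosomal protein synthesis, 3 were higher, a share near that of all genes, and none lower, with a median of 0.06. Mycn, which drives growth genes in stem cells, was the highest, with 78.7 FPKM in WT and 114 in TetTKO, and Nrf1 the lowest, with 36.1 and 34.9. The 11 chaperone and importer genes had 0.07, from Aamp (144 and 80.7) to Ipo5 (126 and 170.3). Of 7 ribosomal protein genes missed by the name rule, Rps4y2 on chromosome 6 was lower by more than 25%, and Rpl36al (1062 and 1117) was the highest. The list medians lay between -0.11 and 0.07 on the log2 scale. At the sparse ends, the genes missed by the name rule had a median difference of 1.53 points. The initiation factor list had -2.23, the assembly factor genes 2.96 and the RNA polymerase I list 1.52. The regulators and sensors had 3.34, and the chaperone and importer genes 1.19. Most lists thus lay well under the 10.6 points of the members.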

How the data were processed

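Methylation and RNA were measured in 1 WGBS and 1 RNA-seq library each of WT and TetTKO cells. Per the submitters' processing notes, with no settings, the tools included Trim Galore, Bismark 0.7.9, Bowtie, SAMtools, TopHat2 2.0.2 and Cufflinks 2.0.2, and the build was mm9. As to the gene models behind the expression values, the sources used here name none. The methylation files deposited by the authors give, per CpG, the methylated fraction with the read counts behind it, for CpGs with at least 5 reads in both libraries. The expression files deposited by the authors give FPKM per gene with an mm9 interval and no strand. Library depth of the RNA cannot be recovered from them.

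From these, log2 ratios were computed with a pseudocount of 1 FPKM for genes of at least 1 FPKM in either library, after summing rows of one symbol and leaving out 9 short RNA symbols. A region's methylation is the mean of its CpG fractions, with at least 5 CpGs. Promoters were placed by matching the CpG spacing of RefSeq sequences (GRCm38.p6) to the listed mm9 CpGs, at least 5 of which had to coincide, within a shift of 600 bp, and GRCm38.p6 coordinates are printed only beside sequences. Intervals of read shares are exact (Clopper-Pearson, 95%), and a share of 0 is given the limit of 3 counts. With 1 library per group no test was made, and the scripts were tested on simulated data. Named members were the 5 most and 5 least abundant, the 5 highest and 5 lowest ratios outside chromosome 6, the stalk, chromosome 6, X-linked and paralog genes with their parents, and the 5 with the most dense-end methylation or with the largest differences at each end and over the interval. The values of 1 gene under this rule are not reported here. Of each comparison list the lowest and highest ratios were named. The members and lists were chosen with earlier results of these data known. Python 3.11.15, numpy 2.4.6, pandas 2.3.3 and scipy 1.17.1 were used.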

Additional observations from a re-analysis of the deposited data

How the results depend on the processing

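Of 70 recalculations of the family's summary values, 68 moved by no more than the tolerance set for them (0.05 on the log2 scale, 1.5 times for counts, and the counting error for methylation). They covered other pseudocounts, filters, scalings, overlapping rows, coverage limits and end windows. With each chromosome's own median subtracted, an alternative added after the data were seen, 1 member instead of 2 was lower by the 25% rule, because Rpl32 left that count. With a coverage of at least 10 reads in both libraries, the median sparse-end difference was 12.3 points over 44 members, where it was 10.6 over 76. The dense-end difference of 0.399 points, though within counting error of them, was 0.162 with that coverage and 0.133 with ends of 500 bp outside. With both RNA libraries scaled to the same sum, the median log2 ratio of the members was 0.06, 8 were higher and 3 lower, and the ratio of the summed FPKM was 1.03 where it was 0.993, so its side of 1 depended on the scaling. Summing the rows that overlap Rpl26, Rps27 and Rpl30, and using the placed start in place of the denser end, were also added after the data were seen.

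No paired analysis was possible because each group has 1 library. Replicate error is unknown throughout, so a 25% difference of one gene cannot be set apart from variation between cultures. The split of reads between ribosomal protein genes and their pseudogenes was not tested. At 8 to 10 reads per CpG, single CpGs are imprecise.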
